A study of Mus musculus with 12 samples.

Results

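Gene deserts are long stretches of chromosome that hold no protein-coding gene. The gene-desert regions described here are the open-chromatin peaks of mouse SHH medulloblastoma that lay more than 200 kb from every protein-coding gene. To find them, the peaks of 12 libraries on chromosomes 1 to 19 were merged wherever they overlapped by at least 1 bp. Of the 43329 merged regions, 2310 (5.33%) had their midpoint more than 200 kb from the span of each of 20665 protein-coding genes. Another 15794 regions lay between genes but closer to one, and 25225 lay inside a gene span.

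Cells were sorted from brain tumours of Ptch1+/- mice that had no treatment, and their accessible DNA was mapped with ATAC-seq, an assay that cuts open chromatin with a transposase. Ptch1 encodes the receptor that restrains hedgehog signalling, and losing it gives a cerebellar tumour of the granule neuron lineage. One sort gave 4 libraries of SOX2+ cells and 4 of SOX2- cells. A second gave 2 libraries of SOX2+/MKI67+ cells and 2 of SOX2+/MKI67- cells, here called MKI67+ and MKI67-. All 12 carry the Ptch1+/- genotype. SOX2 marks stem-like cells of this tumour, and MKI67 marks cycling cells. Sorting was by GFP or RFP per the labels' protocols. The driver of each reporter is not given in the sources used here, nor is the animal behind each replicate. A p-value therefore reflects variation among these libraries, part of which may be technical. Each library is a bulk of many cells, so openness in fewer cells and weaker openness per cell cannot be told apart.

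Many gene deserts lie beside genes that encode developmental transcription factors. They are known to hold distant enhancers, which contact a gene's promoter by looping over the intervening DNA. Such enhancers tend to be open in few cell types, whereas promoters tend to be open in most. Deserts also hold long noncoding RNA (lncRNA) genes and the hairpins that give microRNAs (miRNAs).

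The peak lists held 6851 to 25588 autosomal peaks, and their length stood in for depth, since read counts were not used here. A peak of stem and progenitor genes (8 genes, within 1 kb of a gene end) was listed 25 times in SOX2+ and 11 times in SOX2- libraries. For 8 granule neuron progenitor genes the sums were 14 in SOX2+ and 23 in SOX2- libraries. MKI67+ and MKI67- libraries had 13 and 11 for the stem list and 12 and 6 for the granule list. Some genes did not follow their list: Slc1a3 was listed by 1 SOX2+ and 2 SOX2- libraries, Sox9 by 2 and 2, Zic1 by 4 and 3, Boc by 3 and 3 and Mycn by 4 and 4. The remaining genes followed it, among them Sox2, the gene of the sort (4 and 3). Endothelial and microglial marker genes (4 each) had no such peak in any library.

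Sequence could be shown where RefSeq (build GRCm38.p6) gives it, at lncRNA promoters and miRNAs. The promoter windows run from 250 bases before to 50 after a start, and 53 desert regions (2.29%) touched 1. The first of them, the lncRNA gene Gm26901 (chr1:7398047-7398346, minus strand), was open in all 12 libraries. Gm31830 (chr4:124450907-124451206, plus strand) was in the list of all 4 SOX2+ libraries and of no SOX2- library. Mir100hg, the host of miR-100, let-7a-2 and miR-125b-1 (chr9:41474643-41474942, plus strand), was in the list of all 4 SOX2+ libraries and of 1 SOX2- library. Capitals mark CG dinucleotides, which are dense at promoters open in most cells.
Gm26901: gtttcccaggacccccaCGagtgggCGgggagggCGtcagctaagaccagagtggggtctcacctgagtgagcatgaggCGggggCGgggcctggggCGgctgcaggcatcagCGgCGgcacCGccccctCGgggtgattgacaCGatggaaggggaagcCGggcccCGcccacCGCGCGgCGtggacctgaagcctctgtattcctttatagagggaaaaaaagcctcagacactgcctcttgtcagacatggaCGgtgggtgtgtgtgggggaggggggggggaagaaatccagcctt
Gm31830: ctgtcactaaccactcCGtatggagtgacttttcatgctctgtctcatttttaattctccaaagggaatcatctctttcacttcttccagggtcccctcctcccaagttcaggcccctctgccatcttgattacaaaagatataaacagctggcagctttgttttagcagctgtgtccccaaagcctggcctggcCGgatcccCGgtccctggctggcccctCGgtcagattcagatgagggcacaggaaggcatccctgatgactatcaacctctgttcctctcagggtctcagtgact
Mir100hg: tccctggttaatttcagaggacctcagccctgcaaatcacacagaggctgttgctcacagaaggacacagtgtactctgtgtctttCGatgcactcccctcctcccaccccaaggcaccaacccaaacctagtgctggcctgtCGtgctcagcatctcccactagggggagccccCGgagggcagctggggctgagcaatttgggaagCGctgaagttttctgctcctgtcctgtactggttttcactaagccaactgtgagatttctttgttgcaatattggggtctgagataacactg
Gm26901 held 18 CG dinucleotides and was 65.7% G and C. Gm31830 and the Mir100hg window shown held 4 each and were 51.7% and 53.7% G and C. A second Mir100hg window that a desert region touched (chr9:41376276-41376575) held 15 CG dinucleotides and was 55% G and C. Its region was listed by 3 SOX2+ libraries, 1 SOX2- library, 1 MKI67+ library and 2 MKI67- libraries. Over the 56 promoter windows that desert regions touched, the median was 5 CG dinucleotides and 49.2% G and C. It was 4 and 48.3% over 11311 lncRNA windows, and 14 and 57.0% over 20085 windows of protein-coding genes.

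The miR-344 hairpins form a repeated family on chromosome 7 between Gm51483 and Ndn, an imprinted gene of the Prader-Willi region. Of 13 Mir344 hairpins in the table, 6 lay wholly inside a desert region, each in a region of its own. The mature sequences are shown with the seed, bases 2 to 8, in capitals; the seed is the part that pairs with target mRNAs.
miR-344c-5p: aGUCAGGCugcuggcuagaguac
miR-344-5p: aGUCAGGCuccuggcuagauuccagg
miR-344g-5p: aGUCAGGCuccuggcaggagu
miR-344f-5p: aGUCAGUCuccuggcuggaguc
miR-344i: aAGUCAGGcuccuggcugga
The seed GUCAGGC was shared by 3 of these 5 miRNAs. The hairpin of miR-344g-5p also overlaps the start of the lncRNA gene A330076H08Rik (chr7:61982306-61982605, minus strand). In that promoter the 21 letters of miR-344g-5p are in capitals.
A330076H08Rik: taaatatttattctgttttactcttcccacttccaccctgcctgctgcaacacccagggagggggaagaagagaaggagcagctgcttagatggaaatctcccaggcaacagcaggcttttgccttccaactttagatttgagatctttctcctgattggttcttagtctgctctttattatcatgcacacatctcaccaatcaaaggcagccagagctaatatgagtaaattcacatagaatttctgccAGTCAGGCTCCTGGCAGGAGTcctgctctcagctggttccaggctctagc
The region over that start (chr7:61982065-61982720) was listed by 2 SOX2+ libraries, by all 4 SOX2- libraries and by every MKI67+ and MKI67- library. The region at Mir344-2 (chr7:61939898-61940443) showed the same counts in each group. The region at Mir344 (chr7:61877566-61878181) was listed by 1 SOX2+ library and 3 SOX2- libraries, by both MKI67+ libraries and by neither MKI67- library. At Mir344i the counts were 2 of 4 SOX2+ and 3 of 4 SOX2-, and at Mir344f 2 of 4 in both. Mir344c went the other way, with 3 of 4 SOX2+ and 1 of 4 SOX2- libraries.

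The block between Gm51483 and Ndn held 8 regions in all. Its SOX2+ libraries listed 2, 0, 7 and 6 of them and its SOX2- libraries 2, 8, 5 and 6, so the groups overlapped. The log2 difference was -0.88 (SE 0.40, limma adjusted p = 0.401). Because the hairpins are near copies of each other, reads of 1 copy may have been placed at another; how such reads were handled was not given in the sources used here.

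Some other miRNAs sit in deserts that hold open regions. The let-7c-1 and miR-99a hairpins lie between Usp25 and Cxadr, 482 kb or more from a protein-coding gene. The miR-100 and miR-125b-1 hairpins lie between Ubash3b and Gm40514. miR-99a and miR-100 share the seed ACCCGUA, and let-7c has the seed that let-7 miRNAs have in common.
let-7c-5p: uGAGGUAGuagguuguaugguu
miR-99a-5p: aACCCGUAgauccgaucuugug
miR-100-5p: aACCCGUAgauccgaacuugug
miR-125b-5p: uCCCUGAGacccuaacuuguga
The region nearest to Mir99a (chr16:77594488-77594938, 4.0 kb away) was listed by 3 SOX2+ and 2 SOX2- libraries and by every MKI67+ and MKI67- library. The region nearest to Mir125b-1 (chr9:41580615-41581092, 0.833 kb away) was listed by 1 SOX2+ library, 1 SOX2- library, both MKI67+ libraries and neither MKI67- library. No desert region lay within 20 kb of the Mir100 hairpin. In all, 44 of 919 hairpins of the table lay in deserts. Of these 44, 7 touched a desert region, 6 of them Mir344 hairpins, and most had no desert region within 20 kb.

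Deserts were less densely open than the rest of the genome. They made up 479 Mb, or 19.7% of the 2429 Mb between the first and last gene of each chromosome, and held 4.81 regions per Mb, against 21.0 per Mb elsewhere. Desert regions lay a median of 340 kb and at most 2188 kb from the nearest gene span. The 3 closest inside the limit lay at 200.165, 200.216 and 200.483 kb, and the 3 closest outside it at 199.956, 199.916 and 199.859 kb. Of the 2310, 1735 lay 200 to 500 kb from a gene, 444 lay 500 kb to 1 Mb away and 131 lay over 1 Mb away. The share listed in 6 or more libraries was 17.8%, 16.4% and 11.5% in these distance classes.

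Chromosomes differed in how much of their open chromatin lay in deserts. Desert regions were 9.84% of all regions on chromosome 12 and 8.79% on chromosome 3, against 1.93% on chromosome 19 and 2.15% on chromosome 17. Chromosome 9 had the densest deserts, with 8.01 regions per Mb of desert, and chromosome 17 the sparsest, with 2.54.

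The share of a library's peaks that lay in deserts varied more within groups than between them. In replicates 1 to 4 of SOX2+ cells it was 2.05%, 1.11%, 4.41% and 2.59%. For SOX2- cells the same replicates gave 1.31%, 5.0%, 2.55% and 4.59%. The groups overlapped across nearly their whole range. The mean was 2.54% ± 1.39 in SOX2+ and 3.36% ± 1.73 in SOX2- libraries (SD, n = 4 each), and the difference of -0.82 points did not pass a two-sided exact permutation test (p = 0.457). It was 3.39% and 2.86% in MKI67+ and 3.18% and 2.34% in MKI67- libraries (exact permutation p = 0.667; 2 against 2 cannot go below 0.333).

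In SOX2- libraries the share rose with list length: replicates 1, 3, 4 and 2 had 6851, 12294, 21143 and 25588 autosomal peaks. It also rose over SOX2+ replicates 2, 1 and 3, with 9122, 16412 and 19069 peaks. SOX2+ replicate 4 had the longest list of its group and a lower share than replicate 3. The share was higher in the shorter MKI67+ list and in the longer MKI67- list. An association of the share with list length was not tested. SOX2+ replicate 4 and SOX2- replicate 2 had lists of similar length, 24689 and 25588 peaks, and held 640 and 1279 desert peaks. When each list was cut to its 6851 strongest peaks, desert peaks made up 1.21% ± 0.66 of SOX2+ lists and 1.92% ± 0.69 of SOX2- lists (SD, n = 4 each, exact permutation p = 0.171). SOX2- replicates 2 and 4 and SOX2+ replicate 3 had the highest shares both before and after that step.

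**Figure D1:**
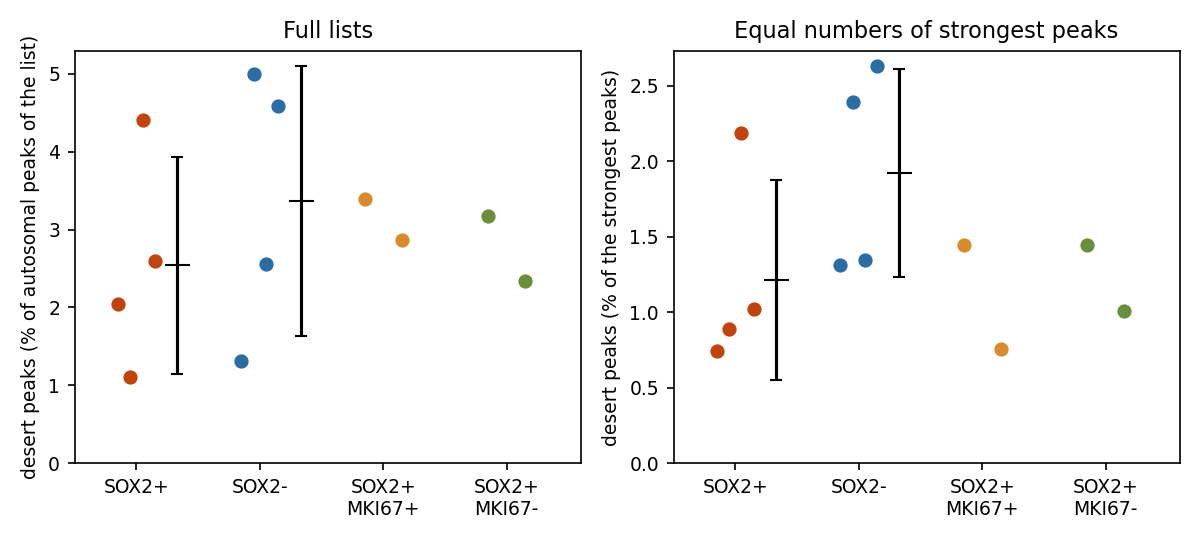
The percent of a library's autosomal peaks that lay in deserts, for full lists (left) and for the 6851 strongest peaks of each list (right). Points are libraries and the bars beside the groups of 4 give the mean and SD; full-list shares run from 1.11% to 4.41% in SOX2+ and from 1.31% to 5.0% in SOX2- libraries.

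Desert peaks had lower scores and were narrower, less often repeated and more isolated than the other peaks of the same list. Strength was taken as the percentile of a peak's score within its own list, where 100 is the strongest, because scores of different lists are not comparable. Desert peaks averaged percentile 36.7 (range over 12 libraries 31.1 to 42.6), against 50.4 for all other peaks, and were lower in 12 of 12 libraries. The difference of -13.7 passed a two-sided exact sign-flip permutation test over libraries (p = 0.000488, the smallest it can give). The median of the authors' fold over background averaged 4.25 for desert peaks, against 4.34 for all other peaks, and was lower in 9 of 12 libraries (sign-flip permutation p = 0.0151). Against other peaks between genes it averaged 4.25 and 4.32, and the sign-flip permutation p was 0.0684. The median width of desert peaks averaged 300 bp, against 383 bp for other peaks, again lower in 12 of 12 libraries (sign-flip permutation p = 0.000488).

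Of desert peaks, 89.7% on average were listed in at least 1 other library, against 95.1% of other peaks, lower in 11 of 12 libraries (sign-flip permutation p = 0.000977). SOX2- replicate 2 stood lowest, at 67.6% of its desert peaks and 83.0% of its other peaks. A second peak of the same list lay within 20 kb of 15.4% of desert peaks, against 41.1% of other peaks, lower in 12 of 12 libraries (sign-flip permutation p = 0.000488). Set against other peaks between genes only, the score percentile and neighbours differed in the same direction in 12 of 12 libraries and recurrence in 10 of 12. Between the sorts these measures overlapped: desert peaks with a neighbour were 13.7% ± 7.63 in SOX2+ and 17.0% ± 8.77 in SOX2- libraries (SD, n = 4 each, exact permutation p = 0.571).

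Seen over libraries, few desert regions were open everywhere. Only 11 of the 2310 (0.476%) were listed in all 12 libraries, while this held for 12.2% of all merged regions. At the other end, 985 (42.6%) were listed in 1 library alone, against 29.9% of the other regions. SOX2- replicate 2 contributed 415 of these 985, SOX2- replicate 4 198 and SOX2+ replicate 3 93, whereas SOX2+ replicate 2 contributed 1. Regions at a lncRNA promoter were listed more widely: 34% of them were in 6 or more libraries, against 16.7% of the remaining desert regions.

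**Figure D2:**
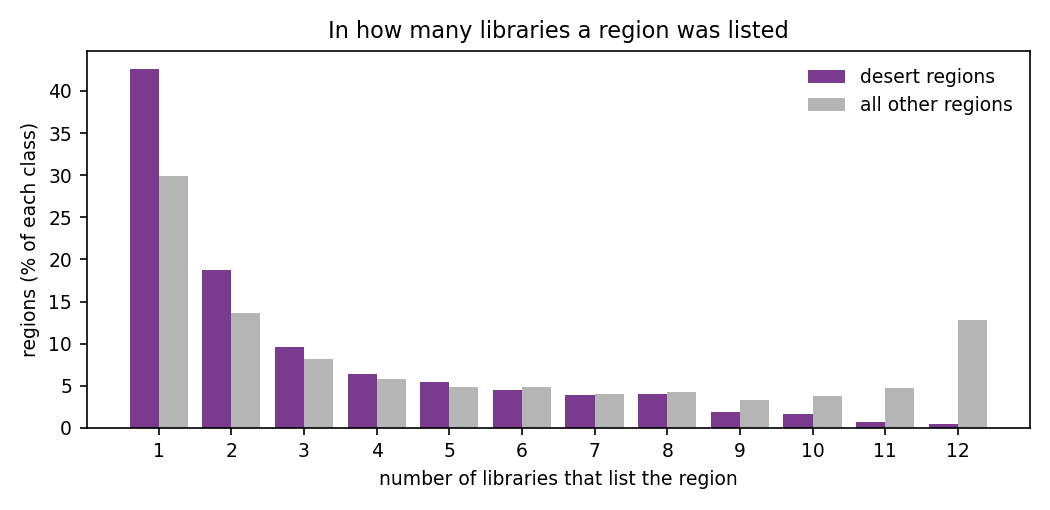
Regions by the number of libraries that list them, as a percent of the 2310 desert regions (purple) and of all other merged regions (grey). Desert regions pile up at 1 library (42.6%, against 29.9%) and are nearly missing at 12 libraries (0.476%).

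The 11 desert regions open in every library included some of the strongest peaks of the lists. The highest, chr12:29290797-29291442, lay 424 kb from Eipr1 and 236 kb from Myt1l, a zinc-finger factor of neurons, and averaged percentile 98. SOX2+ replicates 1 to 4 gave it percentiles of 99.7, 99.0, 99.7 and 99.7, and SOX2- replicates 1 to 4 gave 82.6, 99.6, 99.3 and 99.0. Next was the Gm26901 promoter (chr1:7397466-7398528), printed above, at percentile 96.6. A further one, chr15:62902837-62903609, lay in the desert between Myc and Gsdmc, 913 kb from Myc, at percentile 66.5. The last, chr9:41464190-41464685, lay inside Mir100hg at percentile 53.7. It was the weakest of the 11.

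On average, libraries of the same SOX2 group shared more of their desert regions than libraries of different SOX2 groups. The Jaccard index, the shared regions of 2 libraries over the regions listed in either, averaged 0.234 within and 0.123 between the SOX2+ and SOX2- groups. The difference of 0.111 gave p = 0.0286 in a one-sided exact permutation test over 35 splits, the smallest it can give. Without SOX2+ replicate 1 or 4 that exact permutation p was 0.0857 and 0.0571. Over all other regions the difference was 0.0551 (within 0.483, between 0.427, p = 0.114 by the same exact permutation test). The desert difference exceeded the other by 0.0562 (two-sided exact permutation p = 0.0286 over the same splits), a test added after both values were seen. Without single libraries of the SOX2 sort it ran from 0.0457 to 0.0859. Its exact permutation p was then 0.0571 to 0.114, except without SOX2+ replicate 3 (0.0286). Against other regions between genes it was 0.0491 (exact permutation p = 0.0571).

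In their deserts, the SOX2+/MKI67+ and SOX2+/MKI67- libraries were each closer to SOX2+ than to SOX2- libraries, and MKI67+ libraries shared more with SOX2- libraries than MKI67- libraries did. The mean Jaccard index with the SOX2+ libraries was 0.311 and 0.363 for MKI67+ replicates 1 and 2 and 0.353 and 0.372 for MKI67- replicates 1 and 2. With the SOX2- libraries it was 0.230 and 0.203 for the MKI67+ replicates and 0.102 and 0.0907 for the MKI67- replicates. MKI67+ libraries listed on average 50.6% and 48.3% of a SOX2- library's desert regions, and MKI67- libraries 23.7% and 18.4%. Both MKI67+ values lay above both MKI67- values, in a design whose exact permutation p cannot go below 0.333. With 6851 peaks a list, the index with SOX2- libraries was 0.223 and 0.112 in MKI67+ and 0.0526 and 0.0462 in MKI67- libraries. With SOX2+ libraries it was then 0.278 and 0.323 in MKI67+ and 0.392 and 0.405 in MKI67- libraries. Over regions outside deserts, with full lists, the index with SOX2- libraries was 0.469 and 0.422 in MKI67+ and 0.405 and 0.415 in MKI67- libraries. The index with SOX2+ libraries was there 0.576 and 0.562 in MKI67+ and 0.587 and 0.601 in MKI67- libraries.

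**Figure D3:**
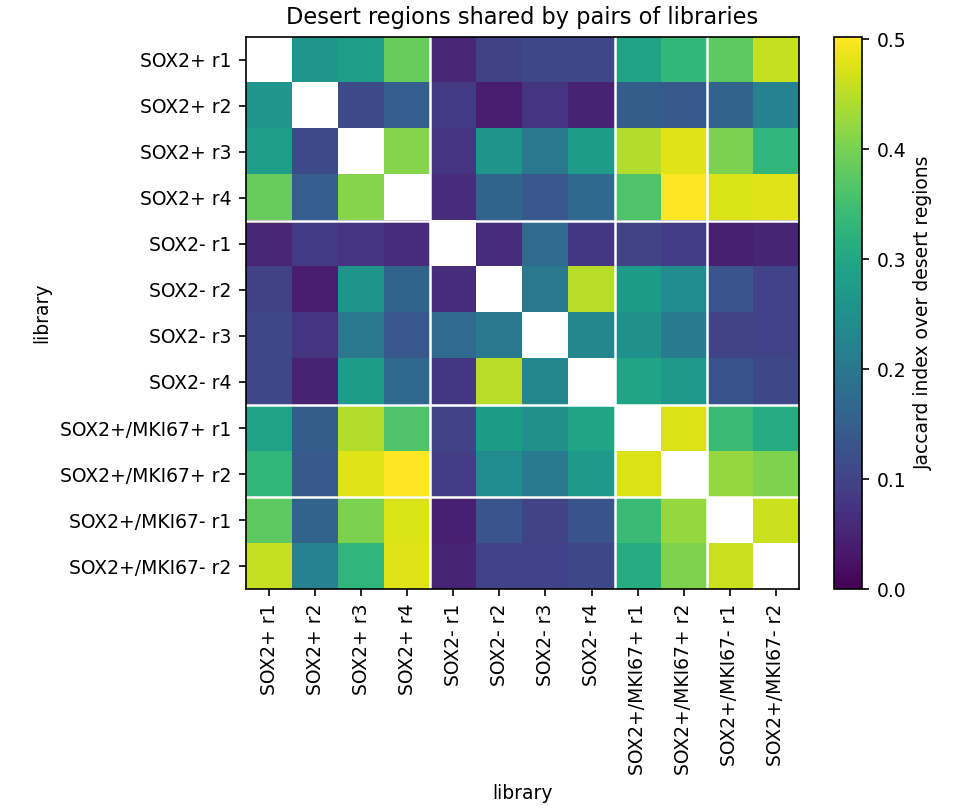
Jaccard index over desert regions for each pair of the 12 libraries, with white lines between the groups (r, replicate). Pairs of SOX2+ with SOX2- libraries average 0.123, pairs of MKI67+ with SOX2- libraries 0.217 and pairs of MKI67- with SOX2- libraries 0.0965.

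A region was called exclusive when at least 3 of 4 libraries of a SOX2 group listed it and 0 of 4 of the other. Of the 2310 desert regions, 98 (4.24%) were exclusive to SOX2+, where 4.13% of all 43329 merged regions were. Another 67 (2.90%) were exclusive to SOX2-, where 1.55% of all merged regions were. The SOX2+ share was thus near the background, and the SOX2- share stood above it with no test of the difference. At the strictest setting, 35 desert regions (1.52%) were open in all 4 SOX2+ libraries and in no SOX2- library, with 1.63% in the background. In the opposite direction 6 (0.260%) met it, with 0.162% in the background.

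The counts moved when single libraries were left out, under a looser rule. The group that lost 1 library then needed at least 2 of 3 to list a region, or all 3 not to. These counts therefore mix the change of rule with the library left out. Leaving out SOX2- replicate 1 gave 349 SOX2- exclusive desert regions and leaving out SOX2- replicate 3 gave 332. Without SOX2+ replicate 3 there were 144. Leaving out SOX2+ replicate 2 gave 209 SOX2+ exclusive desert regions and leaving out SOX2+ replicate 1 gave 174.

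The 4 MKI67 libraries are separate samples in which these regions could be looked up. Of the 98 SOX2+ exclusive desert regions, 60 were listed in all 4 of them and 1 in none. Of the 67 SOX2- exclusive desert regions, 32 were listed in at least 1 MKI67+ library, 0 in either MKI67- library and 35 in none. Outside deserts the pattern was alike, with 302 of 604 SOX2- exclusive regions in an MKI67+ library and 12 in an MKI67- library.

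Within the MKI67 sort, 132 desert regions (5.71%) were listed in 2 of 2 MKI67+ and 0 of 2 MKI67- libraries, where 4.04% of all merged regions were. In the opposite direction 31 (1.34%) were, where 0.985% of all merged regions were. With lists of 6851 peaks each the counts were 10 for MKI67+ and 16 for MKI67-, so the MKI67+ count was no longer the higher. Each MKI67 library then held only 52 to 99 desert peaks. The share over all merged regions at that setting is not given here, so these counts cannot be set against a background. Of the 132 MKI67+ regions, 123 (93.2%) were listed in at least 1 SOX2- library and 24 in SOX2- but no SOX2+ library; outside deserts the first share was 82.8% of 1620. Of the 31 MKI67- regions, 2 (6.45%) were listed in a SOX2- library, and outside deserts 15.9% of 396 were. With 1 MKI67 library left out, the other library of its group alone decided for that group, a looser rule. Without MKI67+ replicate 1 or 2 the MKI67+ regions numbered 259 and 285 and the MKI67- regions 47 and 95. Without MKI67- replicate 1 or 2 the MKI67- regions numbered 70 and 173.

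Among the regions open in all 4 SOX2+ libraries and in no SOX2- library, the 10 with the highest mean percentile were all listed in all 4 MKI67 libraries too. The strongest, chr12:16156012-16156632, lay 339 kb from Trib2 and 379 kb from Lpin1. Its percentile was 83.6, 44.2, 89.4 and 92.6 in SOX2+ replicates 1 to 4, and it was listed in no SOX2- library. The next, chr5:39212525-39212938 between Clnk and Hs3st1, had percentiles of 83.9, 72.7, 89.3 and 88.6 in SOX2+ replicates 1 to 4. chr12:26068013-26068791 was 238 kb from Rnf144a and 972 kb from Id2, which encodes an inhibitor of bHLH factors, and averaged percentile 74.1. chr4:56375687-56376215 was 364 kb from Actl7b and 843 kb from Klf4, which encodes a pluripotency factor, and averaged 69.7. chr10:96397843-96398578 was 219 kb from Btg1, which encodes an antiproliferative factor, and 353 kb from Eea1, and averaged 76.7. The remainder, by their flanks, were Adamts5 to N6amt1, Rasgrp1 to Thbs1, Agtr1b to Tbl1xr1, Mmadhc to Rnd3 and Lrrtm4 to Gcfc2, at mean percentiles of 68.0 to 77.6.

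The 6 regions open in no SOX2+ library and in all 4 SOX2- libraries had mean percentiles of 33.5 to 56.0 (median 36.4). The 35 SOX2+ regions of the same kind had 37.4 to 79.9 (median 56.6), and the ranges overlapped. The strongest, chr7:135932681-135933315, lay 217 kb from Mki67, the proliferation marker, with percentiles of 32.7, 63.6, 58.6 and 69.1 in SOX2- replicates 1 to 4. It was listed in no MKI67 library. The second, chr12:12676677-12677351, lay 259 kb from Mycn, the MYC-family gene that granule neuron progenitors need to divide, at percentiles of 49.9, 47.0, 42.2 and 44.8. It was also listed in 1 of 2 MKI67+ libraries. Regions between Pcdh7 and G6pd2, between 4931429L15Rik and Gm4791, and between Prok2 and Rybp were also listed in MKI67+ but not in MKI67- libraries. The sixth lay between Adamts9 and Magi1 and was listed in no MKI67 library.

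Desert regions were unevenly spread over the 737 deserts between neighbouring genes, called blocks here and named by the genes on their 2 sides. Of these blocks, 517 (70.1%) held at least 1 region. The 55 blocks with 10 or more held 706 regions, 30.6% of all. Within blocks, 823 regions (35.6%) lay within 20 kb of another desert region, against 53.3% of other regions between genes. They formed 356 clusters, 83 of them with 3 or more regions and the largest with 6.

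The block with the most regions, Zeb2 to Acvr2a, held 27; Zeb2 encodes a zinc-finger repressor and Acvr2a an activin receptor. SOX2+ replicates 1 to 4 listed 3, 1, 14 and 9 of them and SOX2- replicates 1 to 4 listed 1, 13, 0 and 15. Usp25 to Cxadr, the desert of let-7c-1 and miR-99a, held 22 and was listed 7, 1, 12 and 13 times in SOX2+ and 2, 15, 6 and 10 times in SOX2- libraries. In both blocks the groups overlapped across their range, and the libraries with long lists were high.

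Slc10a2 to Efnb2 and Got2 to Cdh8 held 20 each; Efnb2 encodes an ephrin and Cdh8 a cadherin. Agtr1b to Tbl1xr1 and Myc to Gsdmc held 17 each, and Bcl11a to Fancl, Olfm4 to Pcdh17 and Celf4 to Pik3c3 held 16 each. Sall3 to Galr1, beside a zinc-finger factor, held 15. None of these 10 blocks passed limma's test between SOX2+ and SOX2- cells, with Benjamini-Hochberg adjusted p of 0.517 to 1. Counts varied among the 5 widest blocks. Pcdh20 to Pcdh9 spanned 4.54 Mb with 7 regions and Cntnap5b to Cdh20 4.28 Mb with 2, while Celf4 to Pik3c3, Olfm4 to Pcdh17 and Tenm3 to Aga held 16, 16 and 6.

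For the test, log2(regions + 1) per block or gene segment was fitted with limma over all 12 libraries, with list length as a covariate. Of 16768 segments, 1.32% were called higher and 0.25% lower in SOX2+ cells at an adjusted p under 0.05. Of 460 desert blocks tested, 6 were higher and 2 lower. That is close to the background for higher blocks. An unadjusted limma p under 0.05 was found for 134 of the 460 desert blocks, against 2373 of all 16768 segments. The median log2 difference was -0.32 over desert blocks and 0 over all segments. These medians carry no test, and without the list-length term 54 desert blocks had an unadjusted p under 0.05.

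The 6 higher blocks held few regions. Fbxo8 to Hand2 and Prickle1 to Adamts20 held 1 region each, seen in every SOX2+ and MKI67 library and in no SOX2- library; Hand2 encodes a bHLH factor and Prickle1 a planar polarity protein. With no spread inside any group, their adjusted p (7.53e-12) came from no measured variation and is no measure of strength. With lists cut to equal peak numbers their log2 differences were 0.25 and 0.75 (limma adjusted p = 0.759 and 0.227). Among peaks above each list's median score they were 0.24 and 0.46 (limma adjusted p = 0.760 and 0.647). With deserts taken at over 100 kb, Prickle1 to Adamts20 had 0.25 (limma adjusted p = 0.844). Fbxo8 to Hand2 passed in 21 of 23 alternatives and Prickle1 to Adamts20 in 20. Rasgrp1 to Thbs1 and Clnk to Hs3st1 were listed 1, 1, 1 and 1 times in SOX2+ and 0, 0, 0 and 0 times in SOX2- libraries (adjusted p = 0.00325 and 0.00326, limma). Here too neither SOX2 group varied, and the spread in the fit came from the MKI67 libraries. Without MKI67+ replicate 1 the limma adjusted p of Rasgrp1 to Thbs1 was 5.65e-10, and without MKI67- replicate 1 that of Clnk to Hs3st1 was 5.62e-10. Over 23 alternatives they ran to 0.199 for Rasgrp1 to Thbs1 and to 0.521 for Clnk to Hs3st1, and both calls were lost with deserts taken at over 100 kb (0.0551 and 0.521). Thbs1 encodes thrombospondin, which glial cells secrete to promote synapses.

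Sqor to Sema6d was the higher block with the most regions, 7. SOX2+ libraries listed 3, 2, 4 and 4 of them and SOX2- libraries 0, 2, 0 and 1, a log2 difference of 1.30 (SE 0.19, limma adjusted p = 0.0167). Sema6d encodes a semaphorin of axon guidance. Only SOX2- replicate 2 reached the lowest SOX2+ value. Without SOX2+ replicate 1, SOX2+ replicate 3 or SOX2- replicate 4, its limma adjusted p was 0.0573, 0.0542 and 0.0583, and over 24 alternatives it ran from 0.0102 to 0.336. Slc5a7 to St6gal2 was listed 1, 1, 2 and 1 times in SOX2+ and 0 times in all SOX2- libraries (1.14, SE 0.17, limma adjusted p = 0.0191). Its limma adjusted p reached 0.0513 to 0.0763 without SOX2+ replicate 1 or any of SOX2- replicates 2 to 4 (range over 24 alternatives 0.00504 to 0.394).

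Lower in SOX2+ cells were Mki67 to Mgmt and Prok2 to Rybp. Mki67 to Mgmt, between the proliferation marker and a DNA repair gene, was listed 1, 0, 2 and 3 times in SOX2+ and 1, 7, 2 and 6 times in SOX2- libraries. Its log2 difference of -1.14 (SE 0.14, limma adjusted p = 0.00795) is adjusted for list length by the covariate. The raw counts overlapped, the limma adjusted p was 0.713 without that term, and with 6851 peaks a list it was 0.153 (range over 23 alternatives 0.00716 to 0.930). MKI67+ libraries listed 3 and 4 and MKI67- libraries 2 and 1. Prok2 to Rybp, beside a polycomb-associated gene, was listed 0, 0, 1 and 1 times in SOX2+ and 1, 3, 2 and 3 times in SOX2- libraries (-1.24, SE 0.17, limma adjusted p = 0.0150). Without SOX2- replicate 4 its limma adjusted p was 0.0535, and without the list-length term 0.226 (range over 23 alternatives 0.00342 to 0.394).

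The blocks next in order did not pass. Etaa1 to Meis1 was listed 0, 0, 1 and 0 times in SOX2+ and 1, 3, 2 and 3 times in SOX2- libraries (limma adjusted p = 0.0526); Meis1 encodes a homeobox factor of granule neuron progenitors. Frg1 to Triml1 was listed 0 times in all SOX2+ and 1, 2, 1 and 1 times in SOX2- libraries (limma adjusted p = 0.0605). Nox3 to Arid1b was listed 0 times in all SOX2+ and 0, 4, 1 and 4 times in SOX2- libraries (limma adjusted p = 0.0678).

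Between MKI67+ and MKI67- cells, limma called 0.155% of segments higher and 0.0775% lower. Of 460 desert blocks, 0 were higher and 1 lower. An unadjusted limma p under 0.05 was found for 32 of them, against 804 of all 16768 segments. The lower one, Pik3c3 to Rit2, held 1 region listed in 0 of 2 MKI67+ and 2 of 2 MKI67- libraries and in no other library. No group varied in it, so its p rests on no measured variation.

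**Figure D4:**
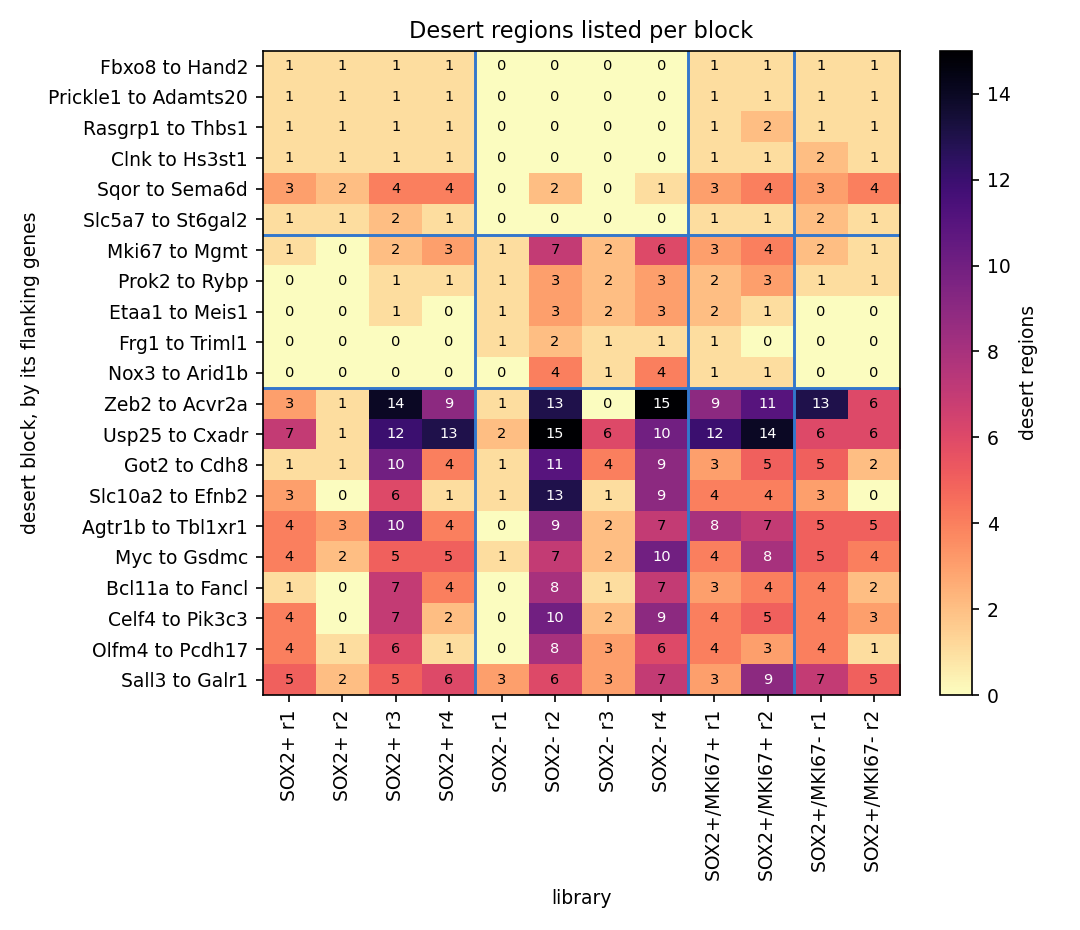
Number of desert regions listed in each block (rows, by flanking genes) by library (columns; r, replicate), with lines between groups. From top to bottom are the 6 blocks called higher in SOX2+ cells, the 5 with the smallest p among lower blocks, of which 2 passed, and the 10 blocks with the most regions.

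Flanking genes were then read through 6 gene lists. Blocks beside neural transcription factor genes were densely open: 69 of 78 such blocks held 425 regions, or 8.94 per Mb of desert, against 4.81 over all deserts. The richest were Zeb2 to Acvr2a, Bcl11a to Fancl, Sall3 to Galr1, Tmem182 to Pou3f3 and Sox2 to Atp11b, with 14 to 27 regions. Blocks beside adhesion and axon guidance genes covered 131 Mb and held 443 regions, 3.37 per Mb. In the neural transcription factor blocks 20 regions were SOX2+ exclusive and 10 SOX2- exclusive, and in the adhesion blocks 11 and 13. Of the blocks tested, limma called 0 of 65 beside neural transcription factors (20 at an unadjusted p under 0.05) and 1 of 73 beside adhesion genes, Sqor to Sema6d (23). Over all 460 desert blocks tested, 134 had an unadjusted limma p under 0.05. The median log2 difference was -0.17 and -0.64 in these lists, against -0.32 over all desert blocks.

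Deserts beside stem and glial genes held SOX2+ exclusive regions alone, and deserts beside granule neuron genes held SOX2- exclusive regions alone. Beside stem, glial and oligodendrocyte genes lay 45 regions (9.94 per Mb), of which 6 (13.3%) were SOX2+ exclusive and 0 SOX2- exclusive. Over all desert regions the shares were 4.24% and 2.90%. Beside granule neuron and neuronal genes lay 57 regions (6.0 per Mb), of which 0 were SOX2+ exclusive and 6 (10.5%) SOX2- exclusive. Hedgehog and proliferation genes had 37 regions, with 2 SOX2+ and 1 SOX2- exclusive. Secreted signals and receptors had 56, with 4 SOX2+ and 0 SOX2- exclusive. In the stem and glial, granule neuron, hedgehog and secreted signal lists limma called 0 of 8, 0 of 12, 0 of 6 and 0 of 11 blocks tested. Blocks with an unadjusted limma p under 0.05 numbered 0, 5, 0 and 4 in these lists, against 134 of all 460 desert blocks tested. The median log2 difference was 0.15 over the stem and glial blocks and -0.76 over the granule neuron blocks, against -0.32 over all desert blocks.

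The 6 SOX2+ exclusive regions beside stem and glial genes lay in 4 blocks. Dnajc19 to Sox2 held 2 of them, chr3:34443739-34444081 and chr3:34445418-34445782, 206 and 204 kb from Sox2. They belong to a cluster of 4 regions within 4.46 kb. Sox2 to Atp11b held 1, chr3:35152252-35152729, 500 kb from Sox2 on the other side. Mpdz to Nfib held 2, among them chr4:81743995-81745104, listed in 4 of 4 SOX2+ libraries and 546 kb from Nfib, a nuclear factor of glial and granule precursors. Tnc to Pappa held 1, chr4:64451746-64452354; Tnc encodes tenascin C, a matrix protein of stem cell niches.

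The whole Dnajc19 to Sox2 block was listed 2, 0, 4 and 4 times in SOX2+ and 0, 1, 1 and 1 times in SOX2- libraries, a log2 difference of 0.66 (SE 0.33, limma adjusted p = 0.463). Sox2 to Atp11b was listed 3, 1, 4 and 6 times in SOX2+ and 0, 4, 0 and 4 times in SOX2- libraries (0.65, SE 0.29, limma adjusted p = 0.376). Neither passed, and both groups overlapped. SOX2 was the gene of the sort, so these blocks lie beside the gene that chose the cells.

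The 6 SOX2- exclusive regions beside granule neuron genes lay near Mycn, Meis1, Rbfox1 and Stmn2. Rbfox1, which encodes a neuronal splicing factor, had 3 of them, 2 in Eef2kmt to Rbfox1 and 1 in Rbfox1 to Tmem114. Meis1 had chr11:18438020-18438661, 442 kb away, listed in 3 of 4 SOX2- and 1 of 2 MKI67+ libraries. Stmn2, which encodes a microtubule regulator of growing axons, had chr3:8216000-8216469, 293 kb away, listed in 3 of 4 SOX2- and no MKI67 library.

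Counted per library, regions beside stem and glial genes were 2.98%, 2.97%, 2.77% and 2.85% of the desert regions of SOX2+ replicates 1 to 4. They were 1.11%, 1.34%, 1.29% and 1.35% in SOX2- replicates 1 to 4, and the groups did not overlap. MKI67+ libraries had 2.28% and 2.93% and MKI67- libraries 2.36% and 2.73%, all above the SOX2- range. These shares rest on 10, 3, 23 and 18 regions in SOX2+ and 1, 17, 4 and 13 in SOX2- libraries. Without Sox2 in the list the shares were 1.49%, 1.98%, 1.81% and 1.27% in SOX2+ and 1.11%, 0.948%, 0.965% and 0.831% in SOX2- libraries.

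Regions beside granule neuron genes made up 1.19%, 0%, 2.41% and 1.74% of desert regions in SOX2+ replicates 1 to 4. The SOX2- replicates 1 to 4 had 3.33%, 2.84%, 4.82% and 3.12%. Again the groups did not overlap. They rest on 4, 0, 20 and 11 regions in SOX2+ and 3, 36, 15 and 30 in SOX2- libraries. MKI67+ libraries had 2.60% and 1.76% and MKI67- libraries 1.86% and 2.23%, below every SOX2- library. For neural transcription factors the shares were 18.2% to 27.7% in SOX2+ and 16.7% to 18.3% in SOX2- libraries, which overlapped. The shares of the remaining lists overlapped too. For adhesion and axon guidance genes they were 9.9% to 19.8% in SOX2+ and 18.0% to 20.8% in SOX2- libraries. For hedgehog and proliferation genes they were 1.45% to 3.96% and 1.29% to 2.22%. For secreted signals and receptors they were 1.98% to 3.02% and 0.643% to 3.33%. The lists were chosen with earlier results of these data known and carry no test here.

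**Figure D5:**
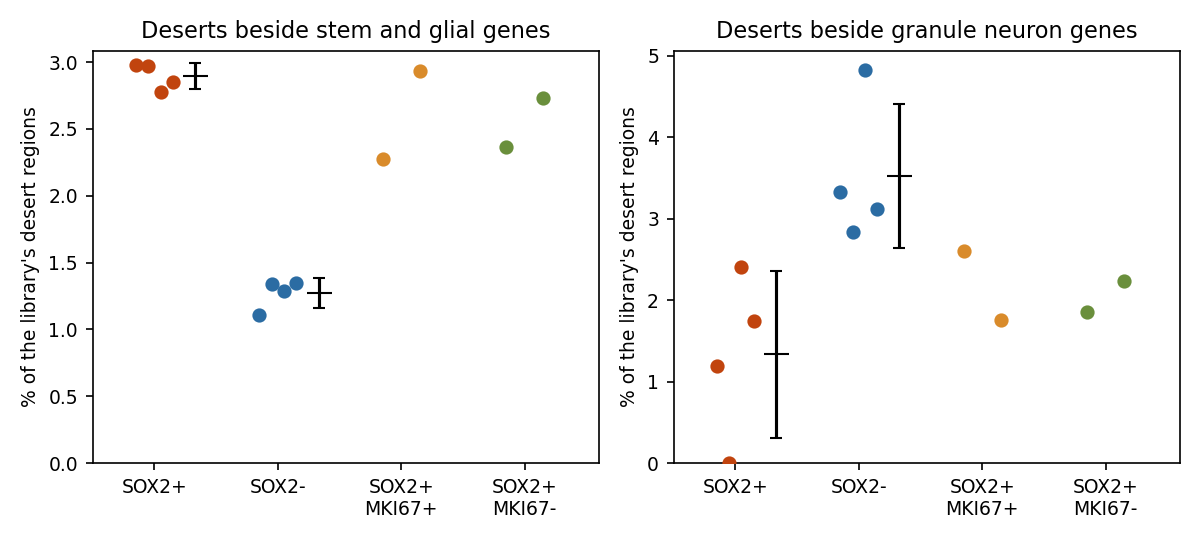
Desert regions in blocks beside stem, glial and oligodendrocyte genes (left) and beside granule neuron and neuronal genes (right), as a percent of each library's desert regions. Points are libraries and bars the mean and SD of the groups of 4; SOX2+ libraries lie above SOX2- libraries on the left (2.77% to 2.98%, against 1.11% to 1.35%) and below them on the right (0% to 2.41%, against 2.84% to 4.82%).

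Exclusive regions of both kinds could share a desert. SOX2+ exclusive regions lay in 85 blocks and SOX2- exclusive regions in 61, and 12 blocks held both kinds. Of the SOX2+ blocks, 13 held at least 2 SOX2+ exclusive regions, among them Igfbp3 to Tns3, Tmem38b to Zfp462 and Adamts5 to N6amt1. For SOX2- the number was 6, among them Tmpo to Nedd1, Klhl29 to Apob and Cdh18 to Basp1. Deserts beside En1, Id2, Klf4 and Sall1, all genes of developmental transcription regulators, held 1 exclusive region of each kind.

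Noncoding genes covered part of the deserts. In all, 491 desert regions (21.3%) overlapped a lncRNA gene. At the Gm31830 promoter, in the desert of the neural POU factor gene Pou3f1, the percentile was 60.8, 16.0, 44.3 and 55.9 in SOX2+ replicates 1 to 4 and no SOX2- library listed it. The Mir100hg promoter whose sequence is shown stood at 59.3, 10.7, 25.6 and 80.1 in SOX2+ replicates 1 to 4 and at 4.1 in SOX2- replicate 2. Celrr, a lncRNA gene beside En1, had its promoter listed by 3 SOX2+ libraries, no SOX2- library and every MKI67 library. Promoters of Gm31115, near Tnc, and of Gm29398 were listed in 1 and 0 of 4 SOX2+ and in 4 and 3 of 4 SOX2- libraries.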

How the data were processed

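ATAC-seq peaks of 12 libraries on chromosomes 1 to 19 were used as the authors deposited them, 1 list per library with no pooling. Bowtie2, MACS2 and the build mm10 are named in the submitters' processing notes. Their versions and settings, and any read shift for the transposase, are not given in the sources used here. Each deposited list gives a score (10 times the −log10 q-value), a fold ratio over local background, and a −log10 p-value and −log10 q-value per peak, all the authors' values. The score ranked peaks within a list only. The test of the fold was added after seeing the data. Depth is unknown, and a region absent from 1 list can be a peak that narrowly missed its threshold.

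Gene spans came from RefSeq GRCm38.p6, whose coordinates are those of mm10. Peaks were merged with 1 bp of overlap. Groups were compared by exact permutation tests over libraries. Regions per segment (gene spans, flanks within 200 kb and desert blocks) were tested with limma 3.58.1 in R 4.3.3 (lmFit and eBayes with trend on log2(regions + 1), 4 groups, log10 of autosomal peaks as covariate, segments listed in at least 2 libraries, Benjamini-Hochberg over all 16768 segments). The limma script was tested on simulated data. Log2 differences depend on the pseudocount of 1. Standard errors of the segments with the most regions were inflated by the variance trend, and a fit without trend was added after seeing the data.

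The members, the 6 gene lists and the alternatives were chosen with earlier results of these data known. Named are the 10 blocks with the most regions, the 5 widest blocks, blocks past an adjusted p of 0.05 (where fewer than 5 pass in a direction, the 5 with the smallest p), up to 10 regions listed in 4 of 4 libraries of a SOX2 group and 0 of 4 of the other, up to 10 regions listed in all 12, and examples per gene list; the blocks with several exclusive regions, the lncRNA promoters and the miRNAs were chosen after their values were seen. Some of the regions and blocks these rules pick are not reported here.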

Additional observations from a re-analysis of the deposited data

Results flagged for a closer look

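In 4 of 56 sets of 4 libraries examined, 1 library was flagged as apart from the other 3, where chance gives about 1 in 20. That is near the chance rate. Such counts are small and tied, so that rate may not hold for them, and some flags rest on a difference of 1 region. Slc5a7 to St6gal2 had 2 regions in SOX2+ replicate 3 and 1 in each other SOX2+ library. Etaa1 to Meis1 had 1 region in SOX2+ replicate 3 and 0 in the other 3. Agtr1b to Tbl1xr1 had 10 regions in SOX2+ replicate 3 and 3 or 4 in the other 3. Frg1 to Triml1 had 2 regions in SOX2- replicate 2 and 1 in each other SOX2- library. Chromosome X, which entered no comparison, held 45 desert regions of 913 merged regions (4.93%). SOX2+ libraries listed 6, 3, 16 and 12 of them and SOX2- libraries 1, 27, 4 and 16.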

How the results depend on the processing

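Desert peaks stayed lower in score percentile and less often repeated than the other peaks of their lists under every alternative run, past 0.05 by exact permutation each time. The desert share differed between SOX2+ and SOX2- libraries under no alternative, with exact permutation p of 0.171 to 0.800. Single libraries decided the similarity test: without SOX2+ replicate 1 or 4 the excess within groups was 0.0757 (exact permutation p = 0.0857) and 0.0876 (p = 0.0571), and over all single omissions it ran from 0.0757 to 0.136. Differences without a call changed sign. The MKI67 share difference was -0.12 with equal peak numbers and -0.048 without MKI67- replicate 2 (range -0.048 to 0.786 over single omissions), and the neighbour difference was 0.39 in deserts over 500 kb and 0.315 without SOX2- replicate 2 (range -6.74 to 0.315).

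Counts of exclusive desert regions moved with distance and list length. For SOX2+, SOX2-, MKI67+ and MKI67-, they were 190, 124, 238 and 65 at 100 kb, 17, 16, 32 and 8 at 500 kb, 35, 32, 10 and 16 with equal peak numbers, and 27, 15, 34 and 9 among the peaks above each list's median score. Single omissions gave 98 to 209, 67 to 349, 131 to 285 and 31 to 173, with a looser rule for the group that lost a library.

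Blocks called higher in SOX2+ cells numbered 15 at 100 kb, 2 at 500 kb, 2 among above-median peaks, and 4 to 12 over single omissions, the most without SOX2+ replicate 2. Blocks called lower numbered 4 at 100 kb, 0 at 500 kb, 0 among above-median peaks, 7 with equal peak numbers, 1 without the list-length covariate, and 1 to 16 over single omissions. For MKI67+, 1 block was higher at 100 kb and 0 to 1 over single omissions; lower blocks were 0 at 500 kb, among above-median peaks and with a region in at least 4 libraries, 2 with equal peak numbers, and 0 to 3 over single omissions. Without the variance trend the calls were again 6 and 2.

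Replicate numbers are shared by the SOX2 groups, but same-numbered libraries did not deviate together (correlations of -0.030, 0.073, -0.0086 and -0.021). With the replicate block, 2 blocks were higher and 0 lower (127 at an unadjusted p under 0.05), and the share and neighbour tests gave exact permutation p of 0.625 and 1.

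Uncalled blocks also changed sign. Zeb2 to Acvr2a had -0.65 with equal peak numbers, -0.14 among above-median peaks and -0.50 to 0.48 over single omissions. Usp25 to Cxadr ran from -0.48 to 0.023, Olfm4 to Pcdh17 from -0.75 to 0.12 and Myc to Gsdmc from -0.30 to 0.080. Agtr1b to Tbl1xr1 had -0.15 and Bcl11a to Fancl 0.22 at 500 kb. Myc to Gsdmc had 0.0081 without the covariate and 0.24 at 100 kb, and Olfm4 to Pcdh17 0.27 among above-median peaks. The causes were not tested.

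With peaks called per library and depth unknown, an unlisted region is not shown to be closed.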

Other observations

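Desert regions proximal on chromosome 13, up to 70 Mb, numbered 65. SOX2+ replicates 1 to 4 listed 10, 3, 13 and 21 of them and SOX2- replicates 1 to 4 listed 0, 31, 1 and 9, so the groups overlapped. MKI67+ libraries listed 9 and 13 and MKI67- libraries 20 and 12.

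Of the 670 desert regions listed in 4 or more libraries, 323 (48.2%) were in more SOX2+ than SOX2- libraries and 251 (37.5%) in more SOX2- than SOX2+ libraries. Of the 19820 other regions listed in 4 or more, the shares were 41.6% and 16.3%. The filter counted all 12 libraries, among them the MKI67 libraries, which were sorted as SOX2+. Over desert regions, the mean Jaccard index with SOX2+ libraries was 0.337 for MKI67+ and 0.363 for MKI67- libraries. With SOX2- libraries it was 0.217 and 0.0965. The filter thus did not treat the SOX2 groups alike, and the larger SOX2+ shares are no measure of a difference between them. The difference between desert and other regions was not tested.

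Across 459 desert blocks, the log2 difference of a block and that of the segments on its sides had Pearson's r = 0.185 and Spearman's rho = 0.168, with the same sign in 254 blocks. This is across blocks that share libraries and list length, and is given as a description.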
